A study of Mus musculus with 6 samples.

Results

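The genes described here are 10 immediate early genes outside the AP-1 family, namely Egr1, Egr2, Egr3, Nab2, Ier2, Ier3, Ier5, Nr4a1, Klf4 and Klf6. They were taken by symbol from the 54838 genes of the count tables, and all 10 were found. They were chosen by their difference between GSK126 and DMSO cells in these libraries and by their spread between replicates, so those values, adjusted p included, describe the members and support nothing. RNA was sequenced from B16F10 cells, a pigmented mouse melanoma line, in 2 groups of 3 libraries each. The first group was treated with GSK126 at 10 µM, an inhibitor of EZH2, the histone H3 lysine 27 methyltransferase of Polycomb repressive complex 2, and the second received DMSO. The sources used here do not give the length of treatment. Nor do the labels state that replicates came from separate cultures, so p-values measure the spread between these libraries, which may be technical.

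Immediate early genes are those that a cell transcribes within minutes of a stimulus such as a growth factor or stress, without needing new protein synthesis. Kinases of the ERK cascade phosphorylate ternary complex factors that sit with serum response factor (SRF) on CArG boxes in the promoters of many of them, while CREB acts through cyclic AMP response elements. Their mRNAs are typically short-lived, and many carry AU-rich elements in the 3' untranslated region (UTR). Egr1, Egr2 and Egr3 are zinc finger transcription factors that bind GC-rich sites, and Nab2 is a corepressor that binds Egr proteins and restrains them. Ier2, Ier3 and Ier5 are small early response proteins, Nr4a1 is an orphan nuclear receptor, and Klf4 and Klf6 are Krüppel-like zinc finger factors.

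The promoters of 3 members are shown because, among the members with a RefSeq window, only they hold a CArG box, a cyclic AMP response half-site or an Egr site. Their fold changes differ widely, with Egr2 several-fold higher in GSK126 cells, Nr4a1 1.13-fold higher and Klf4 at 0.77-fold, and the adjusted p was above 0.05 for all 3. The sequences are the 250 bases before a RefSeq start (GRCm38.p6), written 5' to 3' on the strand of the gene. Capitals mark matches to a CArG box, the cyclic AMP response half-site TGACG, the Egr sites GCGTGGGCG and GCGGGGGCG, the Ets site CCGGAA and the GC box GGGCGG, each on either strand. Matches that overlap run together, as the Egr site and the GC box do in Nr4a1.
Egr2, chr10:67537619-67537868, plus strand: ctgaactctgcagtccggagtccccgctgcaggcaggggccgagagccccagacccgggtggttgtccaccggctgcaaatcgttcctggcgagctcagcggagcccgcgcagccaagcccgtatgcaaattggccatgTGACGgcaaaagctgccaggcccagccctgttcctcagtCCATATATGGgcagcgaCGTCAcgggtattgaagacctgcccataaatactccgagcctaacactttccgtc
Nr4a1, chr15:101266596-101266845, plus strand: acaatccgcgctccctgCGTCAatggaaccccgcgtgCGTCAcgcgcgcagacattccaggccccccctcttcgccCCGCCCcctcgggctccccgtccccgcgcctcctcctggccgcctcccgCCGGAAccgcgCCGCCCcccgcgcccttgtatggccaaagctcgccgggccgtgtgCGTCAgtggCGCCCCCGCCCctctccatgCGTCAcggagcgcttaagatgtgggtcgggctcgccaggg
Klf4, chr4:55532476-55532725, minus strand: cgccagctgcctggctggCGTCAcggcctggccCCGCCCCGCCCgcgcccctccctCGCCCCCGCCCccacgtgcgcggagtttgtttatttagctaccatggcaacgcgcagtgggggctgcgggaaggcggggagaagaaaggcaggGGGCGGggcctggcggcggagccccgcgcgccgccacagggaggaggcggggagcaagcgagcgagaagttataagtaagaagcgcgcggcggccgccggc

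No RefSeq window was at hand for Egr1, Egr3 and Ier2, so their promoters were not searched. Windows of 250 bases before and 50 after a start were at hand for 7 members, that is Egr2, Nab2, Ier3, Ier5, Nr4a1, Klf4 and Klf6. A CArG box stood in the windows of 1 of these 7 members, Egr2, against 1.63% of all 32817 windows. Here a member counts if any of its windows holds the motif, whereas the percentages are per window, so the shares are not alike in measure. In the Egr2 window shown it reads CCATATATGG and begins 72 bases before the start, between half-sites that begin 111 and 55 bases before it. Egr2 has 5 RefSeq starts, and 4 of their windows held a CArG box, while the one of the most upstream start (chr10:67535249-67535548) did not. The windows that begin at 67537619, 67537620 and 67537680 overlap and hold the same CCATATATGG, and the one at 67537316 holds CCTTTTTTGG. The half-site TGACG was found in 3 of 7 members (Egr2, Klf4 and Nr4a1) and in 20.8% of all windows, and Nr4a1 held it 4 times. An Egr site was found in Klf4 and Nr4a1, 2 of 7 members, against 3.47% of windows, an Ets site in Nr4a1 and, at another start than the one shown, in Egr2, 2 of 7, against 14.9%, and the GC box in 7 of 7 against 35.6%. These are matches of letters and not shown to be sites of binding.

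The members span a wide range of levels. On the FPKM scale, which divides by gene length and so allows genes to be compared, Ier2 was highest in GSK126 cells at a mean of 35.3 (range 31.0 to 41.8), against 20.8 (19.2 to 22.1) in DMSO cells. In GSK126 cells Klf6, Ier3, Egr1 and Nr4a1 followed at mean FPKM values of 21.7, 19.3, 14.5 and 13.4, each with a range that overlapped that of the next. Nab2 and Ier5 lay at 4.79 and 4.46 FPKM and overlapped too, then came Klf4 and Egr2 at 0.606 and 0.519, and Egr3 was lowest at 0.0236. In DMSO cells Klf6 was highest at 23.9 FPKM, followed by Ier2, Ier3 at 14.2 and Nr4a1 at 11.8, with no overlap between neighbours. Nab2, Ier5 and Egr1 lay next at 4.68, 3.58 and 2.99 FPKM, with overlapping ranges between neighbours, then Klf4 at 0.785. Egr2 and Egr3 closed the order in DMSO cells at 0.111 and 0.0644 FPKM, again overlapping. Egr1 is thus the member whose place in the order differed most, the 4th of 10 in GSK126 cells and the 7th in DMSO cells.

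**Figure D1:**
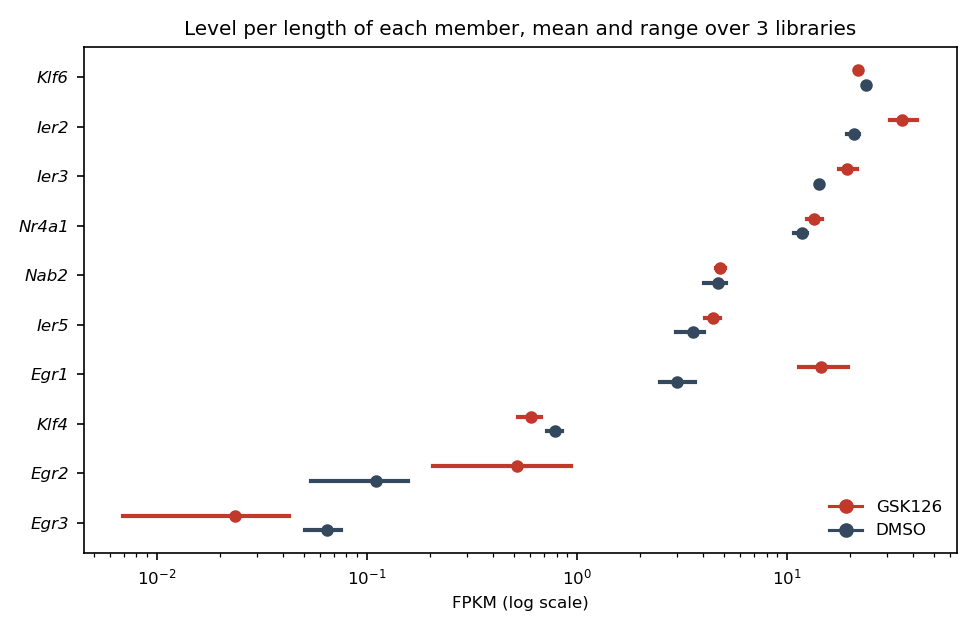
Level per length of the 10 members in FPKM on a log axis, GSK126 in red above DMSO in dark blue, with points for the mean and bars for the range over 3 libraries. Egr1 averaged 14.5 FPKM in GSK126 cells and 2.99 in DMSO cells, while Klf6 averaged 21.7 and 23.9.

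Egr1 and Egr2 were several-fold higher in GSK126 cells, and Egr3 went the other way at a few reads per library. Egr1 had 85.8, 146.9 and 93.7 CPM (counts scaled to library size with TMM factors) in GSK126 replicates 1 to 3, against 21.2, 27.5 and 18.9 CPM in DMSO replicates 1 to 3. Each GSK126 library lay above each DMSO library, with GSK126 replicate 2 well above the other treated libraries. The edgeR log2 fold change of Egr1 was 2.27 (SE 0.23, 4.83-fold), its adjusted p was 0.00214, and it ran from 1.99 to 2.44 when each of the 6 libraries was left out in turn. Egr1 lies on GRCm38 chromosome 18, 34859823 to 34864984.

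Egr2 (chromosome 10, 67535475 to 67542188), known for its role in myelinating Schwann cells and in lymphocytes, was expressed at a low level. It had 16, 75 and 32 reads in GSK126 replicates 1 to 3, against 4, 12 and 9 in DMSO replicates 1 to 3. The groups did not overlap, but the lowest treated library was close to the highest control. The log2 fold change of Egr2 was 2.20 (SE 0.64, adjusted p = 0.0713 in edgeR) and 1.45 (SE 0.50) without GSK126 replicate 2. It passed the threshold in DESeq2 (adjusted p = 0.00715) and in edgeR without GSK126 replicate 1 (0.0443). Egr2 also passed in edgeR with the replicate number as a block (adjusted p = 0.0362). The adjusted p ranged from 0.00715 to 0.191 over 12 alternatives.

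Egr3 (chromosome 14, 70077203 to 70082614) had 3, 1 and 6 reads in GSK126 replicates 1 to 3 and 10, 7 and 9 in DMSO replicates 1 to 3. It was the only member removed by the filter on low counts, so 9 of 10 were tested. With the filter lifted its log2 fold change was -1.42 (SE 0.54, adjusted p = 0.243 in edgeR). The groups did not overlap, with 10 reads in all against 26. Nab2, the corepressor of Egr proteins, had 22.7, 20.9 and 20.8 CPM in GSK126 replicates 1 to 3 and 21.8, 18.1 and 23.3 CPM in DMSO replicates 1 to 3. The treated values lay within the range of the controls (log2 fold change 0.03, SE 0.11, adjusted p = 0.894 in edgeR), and the sign changed with the library left out, to -0.01 without GSK126 replicate 1 and -0.07 without DMSO replicate 2. Nab2 (chromosome 10, 127660918 to 127668568) shares 40 bp of exons with Stat6 and 151 bp with Nemp1, both on the opposite strand and with 15110 and 5353 reads against 1796 for Nab2, so its count is uncertain where strand was not used.

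**Figure D2:**
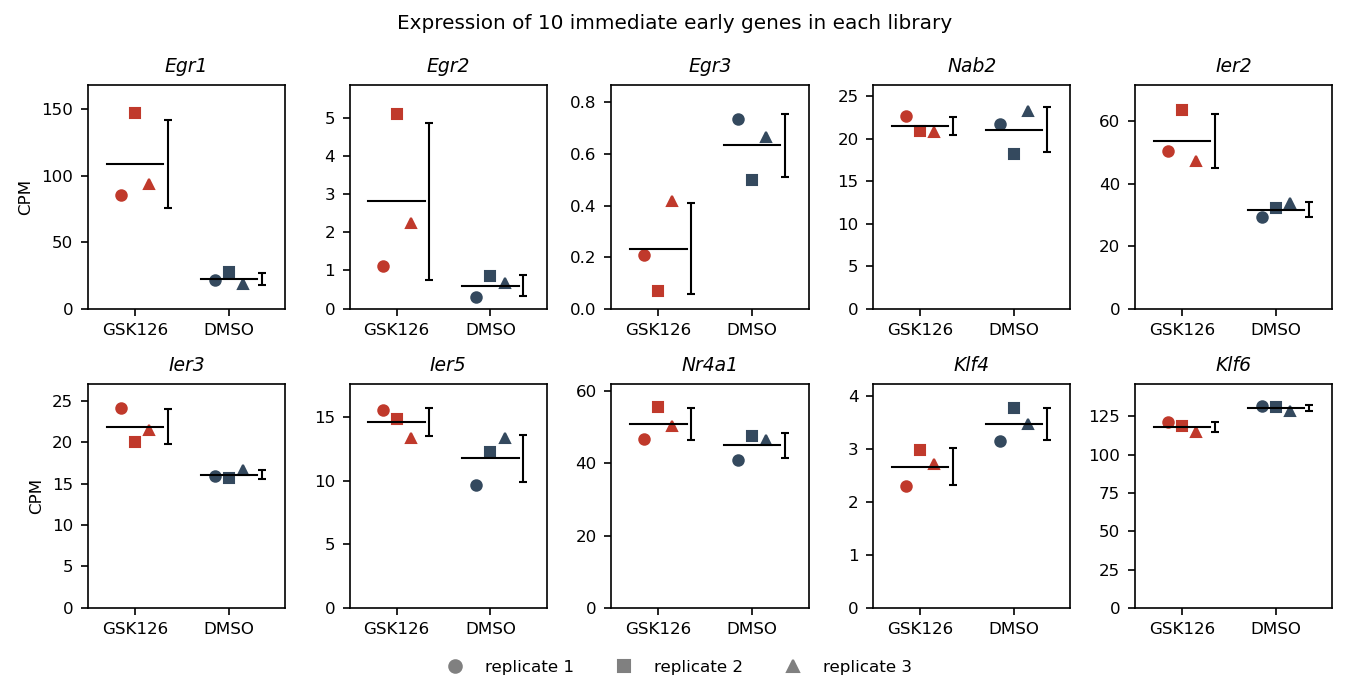
CPM of each member in the 3 GSK126 libraries (red, left) and the 3 DMSO libraries (dark blue, right), with marker shape for the replicate, a line for the mean and a bar for the SD. Egr1 and Ier2 are separated between groups with GSK126 replicate 2 on top, and Nab2 and Nr4a1 overlap.

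The Ier genes had smaller differences than Egr1, and in each of them all GSK126 libraries lay above all DMSO libraries. Ier2 (chromosome 8, 84661331 to 84662852) had 50.5, 63.6 and 47.3 CPM in GSK126 replicates 1 to 3, against 29.3, 32.2 and 33.9 CPM in DMSO replicates 1 to 3. Its groups stood well apart, and replicate 2 was again the highest treated library. The log2 fold change was 0.76 (SE 0.12, adjusted p = 0.0112 in edgeR), and it missed the threshold without DMSO replicate 1 (adjusted p = 0.0512). Ier3 (chromosome 17, 35821684 to 35822923), linked to survival under stress, had 24.2, 19.99 and 21.4 CPM in GSK126 replicates 1 to 3, against 15.95, 15.65 and 16.7 CPM in DMSO replicates 1 to 3. The treated libraries were all higher and replicate 1 led them. The log2 fold change was 0.44 (SE 0.09, adjusted p = 0.0289 in edgeR), and the call ended when GSK126 replicate 1 or 3 or any of the 3 DMSO libraries was left out, at an adjusted p of up to 0.102. Ier5 (chromosome 1, 155096361 to 155099636) had 15.6, 14.9 and 13.4 CPM in GSK126 replicates 1 to 3, against 9.70, 12.2 and 13.3 CPM in DMSO replicates 1 to 3. The groups of Ier5 nearly touched, at 13.39 and 13.34 CPM. Its log2 fold change of 0.31 (SE 0.13, adjusted p = 0.185 in edgeR) did not pass.

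None of Nr4a1, Klf4 and Klf6 passed the threshold, and the Krüppel-like members lay slightly lower in GSK126 cells. Nr4a1 (chromosome 15, 101254269 to 101274795) had 46.8, 55.6 and 50.2 CPM in GSK126 replicates 1 to 3 and 40.9, 47.45 and 46.4 CPM in DMSO replicates 1 to 3. The groups overlapped, and the log2 fold change was 0.18 (SE 0.09, adjusted p = 0.25 in edgeR). Klf4 (chromosome 4, 55527143 to 55532466), one of the reprogramming factors, had 33, 44 and 39 reads in GSK126 replicates 1 to 3 and 43, 53 and 47 in DMSO replicates 1 to 3, which after scaling did not overlap (2.30 to 2.99 CPM against 3.16 to 3.77 CPM). The log2 fold change was -0.38 (SE 0.18, adjusted p = 0.22 in edgeR). Klf6 (chromosome 13, 5861482 to 5870394), the member with the most reads in DMSO cells, had 121.0, 118.4 and 114.6 CPM in GSK126 replicates 1 to 3, against 131.6, 131.1 and 128.3 CPM in DMSO replicates 1 to 3. Its groups were close but separate (0.905-fold, log2 fold change -0.14, SE 0.04, adjusted p = 0.083 in edgeR).

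Of the 9 tested members, 3 were called higher (Egr1, Ier2 and Ier3), 0 lower and 6 were not called, where 5.87% of all 13601 tested genes were called higher and 11.1% in either direction. The count of called members was 1 without DMSO replicate 1, where Egr1 alone stayed below the threshold, and 2 or 3 without any other library. Egr1 and Egr2 differed by 1 or more on the log2 scale, as did 1.9% of all tested genes, and Egr1 was called as well, as were 1.01%. The groups did not overlap in 5 tested members that were higher and 2 that were lower, where the shares for all tested genes were 17.6% higher and 16.8% lower, 34.4% in all. The median log2 fold change was 0.31 over the tested members and 0.00 over all tested genes. Because the members were chosen with this contrast known, nothing is read from these counts.

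**Figure D3:**
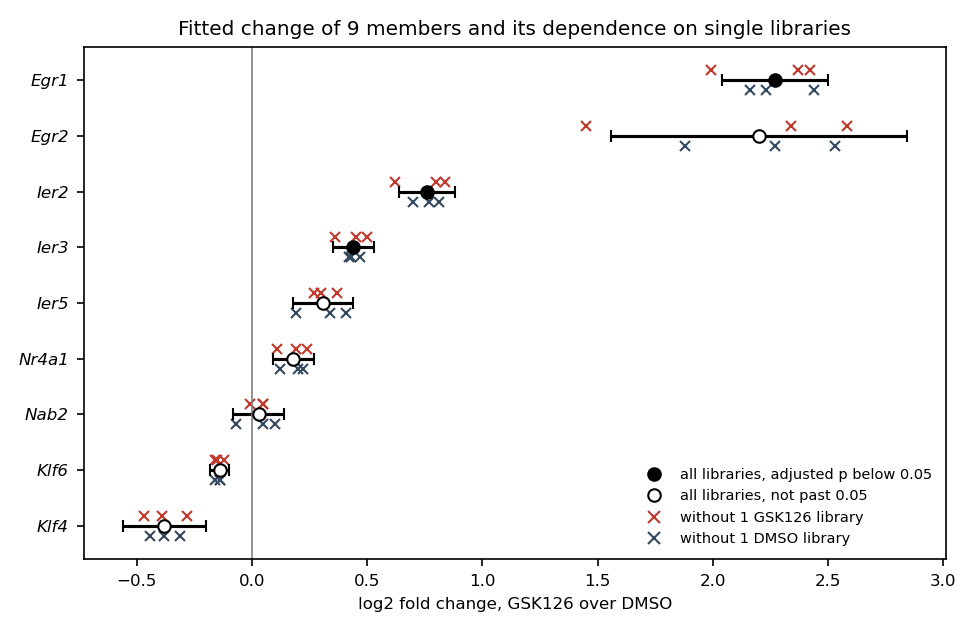
Log2 fold change of the 9 tested members, GSK126 over DMSO, with bars for the SE, filled circles where the adjusted p was below 0.05, and crosses for the fits without 1 library (red for a GSK126 library above, dark blue for a DMSO library below). Egr1 stays between 1.99 and 2.44, while Egr2 reaches down to 1.45 and Nab2 crosses 0.

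The members also differed in how much they varied between libraries of a group. The coefficient of variation in GSK126 cells was 30.5% for Egr1, 73.0% for Egr2, 76.0% for Egr3 and 16.0% for Ier2. For the same genes in DMSO cells it was 19.6%, 47.1%, 19.3% and 7.34%. At the other end it was 2.73% in GSK126 cells and 1.36% in DMSO cells for Klf6. For Ier3, Nr4a1 and Klf4 it was 9.69%, 8.7% and 13.0% in GSK126 cells, against 3.26%, 7.77% and 8.79% in DMSO cells. It was lower in GSK126 cells than in DMSO cells for Nab2 (4.93% against 12.5%) and Ier5 (7.62% against 15.9%). The biological coefficient of variation that edgeR estimates beyond counting error was above that of genes of like abundance for Egr1 (0.197 against 0.114) and Egr2 (0.463 against 0.203), and below it for the other 7 tested members. Egr3 had 1 to 6 reads in GSK126 libraries and 7 to 10 in DMSO libraries. It was not tested, so counting error was not separated from its spread. GSK126 replicate 2 was the highest treated library for 5 members (Egr1, Egr2, Ier2, Nr4a1 and Klf4), replicate 1 for 4 (Nab2, Ier3, Ier5 and Klf6) and replicate 3 for Egr3. DMSO replicate 2 was the highest control for 4 members (Egr1, Egr2, Nr4a1 and Klf4) and replicate 3 for 4 (Nab2, Ier2, Ier3 and Ier5). DMSO replicate 1 was the highest for Egr3 and Klf6. The 10 members together took 370, 448 and 367 CPM in GSK126 replicates 1 to 3, against 275, 289 and 286 CPM in DMSO replicates 1 to 3.

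The genes whose log2 CPM over the 6 samples was most like that of Egr1, among 10125 candidates with at least 5 CPM on average, were Igsf11, Kif4, Zc4h2, Lss and Sox10. Pearson's r as a measure of likeness was 0.998, 0.993, 0.992, 0.992 and 0.991, over 6 samples that form 2 groups. Igsf11 encodes a cell adhesion molecule, Kif4 a chromosome kinesin, Lss lanosterol synthase and Sox10 a transcription factor of the melanocyte lineage. Igsf11 had 35.9, 39.1 and 35.7 CPM in GSK126 replicates 1 to 3, against 27.9, 29.7 and 27.8 CPM in DMSO replicates 1 to 3, with replicate 2 the highest of each group, as for Egr1, at a smaller difference (log2 fold change 0.37, SE 0.07).

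What the choice did not use is the structure of the genes. In the GENCODE M21 annotation 6 of the 10 members have 3 exons or fewer in their main coding transcript, as do 12.2% of 11544 tested coding genes, and Ier2 and Ier5 have 1. The median gene span was 5368 bases, against 24540 for tested coding genes, while the median transcript length was alike (2997 and 3016 bases). The pentamer ATTTA, the core of AU-rich elements, occurred in the 3' UTR of 9 of 10 members and of 66.1% of tested coding genes, and at least 3 times in 6 of 10 members and 34.9% of tested coding genes. Ier3 had 5 copies in 613 bases, Nr4a1 3 in 543 and Nab2 3 in 752, while Egr3 and Klf6 had 7 each in 2645 and 3111 bases. Ier2, the only member without the pentamer, had none in 755 bases. Egr1 had 2 in 1216 bases.

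Of 16 family relatives of the members 15 were tested, and Nr4a3 and Nab1 rose while Klf16 fell (median log2 fold change 0.00). That is 3 of 15, where 11.1% of all tested genes were called. Without 1 library, 0 or 1 rose and 0 fell in each of the 6 fits. Nr4a3, an orphan receptor of the Nr4a1 family, had 268, 243 and 250 CPM in GSK126 replicates 1 to 3, against 111, 34.6 and 108 CPM in DMSO replicates 1 to 3. All treated libraries were above all controls, but DMSO replicate 2 had less than the other controls by a wide margin (log2 fold change 1.58, SE 0.38, with an adjusted p of 0.0398 in edgeR). The call for Nr4a3 ended in 5 of the 6 fits without 1 library, all but the one without DMSO replicate 2, at an adjusted p of up to 0.102. Nab1, the other Egr corepressor, averaged 121 ± 14.8 CPM in GSK126 cells and 95.8 ± 2.48 CPM in DMSO cells (SD, n = 3 each, log2 fold change 0.34, adjusted p = 0.0484 by edgeR), and its call ended in 4 of 6 such fits (adjusted p of up to 0.137). Klf16 averaged 18.8 ± 1.28 CPM in GSK126 cells and 25.4 ± 1.72 CPM in DMSO cells (SD, n = 3 each, log2 fold change -0.43, adjusted p = 0.0258 by edgeR), a call that ended in 6 of 6 (adjusted p of up to 0.0904). Egr4, the remaining Egr gene, had 3 reads in GSK126 replicate 1 and 0 in the other 5 libraries.

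Other immediate early genes moved in both directions. Of 36 listed, 33 were tested (median log2 fold change -0.10). Of these, 2 rose, 6 fell and 25 did not pass, where 5.87% of all tested genes were called higher and 5.18% lower. The genes that rose were Zfp36 and Id3, an inhibitor of basic helix-loop-helix factors (log2 fold change 0.59). The call of Id3 ended in DESeq2 (adjusted p = 0.074) and in 6 of the 6 fits without 1 library (adjusted p of up to 0.0912). Zfp36, whose product tristetraprolin promotes decay of mRNAs with AU-rich elements, had 19.3, 26.5 and 23.5 CPM in GSK126 replicates 1 to 3, against 12.7, 12.2 and 13.5 CPM in DMSO replicates 1 to 3 (log2 fold change 0.85, SE 0.13, adjusted p = 0.00863 in edgeR). It was higher in each treated library than in any control. The genes that fell included Ctgf (Ccn2), a matricellular protein gene, at 7.02 ± 1.05 CPM in GSK126 cells and 15.4 ± 3.70 CPM in DMSO cells (SD, n = 3 each, log2 fold change -1.14), and Myc at 30.4 ± 4.10 CPM in GSK126 cells and 48.5 ± 1.13 CPM in DMSO cells (SD, n = 3 each, log2 fold change -0.67). Plk3, a stress-responsive kinase (log2 fold change -0.78), Maff, a small Maf factor (-0.94), and Cxcl1, a chemokine (-0.83), also fell. Ifrd1 fell to 62.0 ± 3.47 CPM in GSK126 cells, against 91.5 ± 3.65 CPM in DMSO cells (SD, n = 3 each). Its log2 fold change was -0.56 (SE 0.06), and its adjusted p of 0.00299 in edgeR was the lowest among the called genes of this list. The call of Ifrd1 was not followed over the alternatives. The count that fell was 3 without GSK126 replicate 1, DMSO replicate 1 or DMSO replicate 3, and 1 gene rose in each of the 6 fits without 1 library. The Myc and Zfp36 calls held in all 12 alternatives, that of Ctgf ended without GSK126 replicate 1 (adjusted p = 0.0513), and those of Plk3, Maff and Cxcl1 ended in 2, 5 and 6 of the 6 fits without 1 library.

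Among the AP-1 subunits, which are induced by many of the same stimuli, 8 of 10 were tested (median log2 fold change 0.17). Of these, 2 rose and 1 fell, where 5.87% of all tested genes were called higher and 5.18% lower. Fos had 28.0, 40.3 and 32.9 CPM in GSK126 replicates 1 to 3, against 8.97, 12.3 and 11.9 CPM in DMSO replicates 1 to 3 (log2 fold change 1.61, SE 0.17, adjusted p = 0.00235 in edgeR). Junb averaged 37.6 ± 3.43 CPM in GSK126 cells and 20.6 ± 1.6 CPM in DMSO cells, and Fosl2 12.9 ± 1.57 CPM in GSK126 cells and 22.7 ± 0.398 CPM in DMSO cells (SD, n = 3 each, log2 fold changes 0.87 and -0.81). GSK126 replicate 2 was the highest treated library for Fos, Junb and Zfp36, as for Egr1. DMSO replicate 2 was the highest control for Fos and Junb too, as for Egr1, but the lowest for Zfp36. These 3 AP-1 calls held in all 12 alternatives, and Junb shares 173 bp of exons with Prdx2.

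Genes known to be raised by ERK signalling, many of which feed back on it, were called lower more often than higher. Of 18 tested, 11 fell, 1 rose and 6 did not pass, with a median log2 fold change of -0.54, where 5.18% of all tested genes were called lower. Like the other lists, this one was chosen with earlier results of these data known, so nothing is read from the count. Etv5, an ETS factor, averaged 3.50 ± 0.114 CPM in GSK126 cells and 11.8 ± 1.30 CPM in DMSO cells (SD, n = 3 each), and Etv4 had 1, 2 and 0 reads in GSK126 replicates 1 to 3, against 17, 16 and 24 in DMSO replicates 1 to 3. Spry4, an inhibitor of the pathway, averaged 3.97 ± 0.554 CPM in GSK126 cells and 8.55 ± 0.851 CPM in DMSO cells, and cyclin D1 (Ccnd1) 98.8 ± 6.36 CPM in GSK126 cells and 213 ± 1.38 CPM in DMSO cells (SD, n = 3 each). The phosphatase genes Dusp4 (log2 fold change -0.55) and Dusp6 (-0.62) fell too, as did the cytokine gene Lif (-1.35) and the receptor gene Epha2 (-1.21), while the related receptor gene Epha4 rose (0.99). The calls of Lif and Epha2 each ended in 5 of the 6 fits without 1 library, with the adjusted p reaching 0.0715 for Lif and 0.109 for Epha2. The number that fell was 7 without GSK126 replicate 1 or DMSO replicate 1 and 8 or 9 without any other library. DESeq2 called 10 lower and gave Etv4 no adjusted p.

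Upstream of the members, Srf fell to 32.5, 34.3 and 33.9 CPM in GSK126 replicates 1 to 3, against 51.5, 51.6 and 51.5 CPM in DMSO replicates 1 to 3 (log2 fold change -0.62, SE 0.06, adjusted p = 0.00156 in edgeR). The other 9 of 10 genes for SRF, its ternary complex factors and cofactors did not pass, and the list had a median log2 fold change of 0.06. Of 22 ERK pathway kinases and adaptors 2 rose, Shc4 (log2 fold change 2.48) and Braf (0.39), and 0 fell (median -0.03). The share called was 9.09% for this list and 10.0% for the SRF list, where 11.1% of all tested genes were called. Shc4 shares 527 bp of exons with Eid1 and Braf 146 bp with Ndufb2, so part of their reads is uncertain. Of 11 tested heat shock genes, which handling of cells can induce, Hsph1 fell (log2 fold change -0.22) and the others did not pass. That is 9.09% of these genes, with a median of -0.03. The call of Hsph1 ended in 3 of the 6 fits without 1 library (adjusted p of up to 0.0986 in edgeR). Whether handling had a part in the members' values was not tested.

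**Figure D4:**
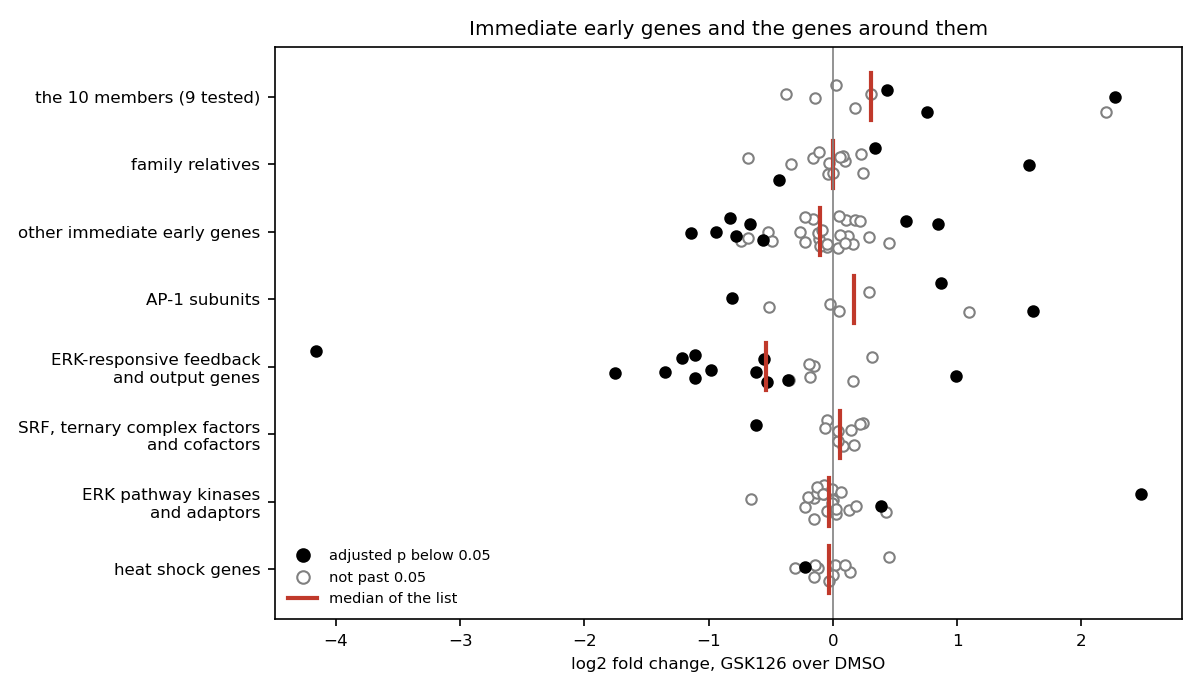
Log2 fold change, GSK126 over DMSO, of each tested gene in the lists of related genes, filled where the adjusted p was below 0.05, with a red line for the median of each list and random vertical spread. The ERK-responsive list lies mostly to the left of 0 with a median of -0.54, and the lists of other immediate early genes and AP-1 subunits spread to both sides.

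The 6 libraries held 14250457 to 14713373 counts in GSK126 cells and 13594939 to 14072673 in DMSO cells. GSK126 replicate 3 was separate from the other treated libraries along principal component 2 (18.8% of variance) and had 1.512% of its counts in ribosomal protein genes, against 1.761% to 1.864% in the other 5 libraries. Among the treated libraries it was the lowest for Nab2, Ier2, Ier5 and Klf6, the highest for Egr3 and in the middle for Egr1, Egr2, Ier3, Nr4a1 and Klf4. The melanocytic markers summed to 23800 to 25000 CPM in GSK126 cells and 22400 to 23600 CPM in DMSO cells, with 8 of 8 detected. Of these markers 4 rose, 1 fell and 3 did not pass, so that 62.5% were called, where 11.1% of all tested genes were called. Those that rose were the transcription factor genes Mitf (log2 fold change 0.60) and Sox10 (0.17) and the melanosome genes Pmel (0.28) and Dct (0.15). Mlana fell (-0.28), while Tyr, Tyrp1 and Slc45a2 did not pass, at 0.999-fold, 0.948-fold and 0.997-fold. The calls of Mitf and Pmel held in all 12 alternatives, and those of Sox10, Dct and Mlana ended in 5, 5 and 3 of the 6 fits without 1 library, with the adjusted p reaching 0.127, 0.138 and 0.0934. Their part in the members' values was not tested. Of the 6 fibroblast markers, the summed level was 17.1 to 22.4 CPM in GSK126 cells and 23.2 to 26.5 CPM in DMSO cells, nearly all from Col1a2, and 6 leukocyte markers summed to 3.19 to 4.6 CPM in GSK126 cells and 2.06 to 3.41 CPM in DMSO cells, with Cd3e and Adgre1 at 0 reads. Ptprc, the common leukocyte antigen gene, had 14 reads in GSK126 replicate 3 and 0 in the other 5 libraries. The 4 endothelial markers reached at most 0.698 CPM in GSK126 cells and 0.667 CPM in DMSO cells, with Cdh5, Kdr and Tek at 0 reads, and the 4 epithelial markers at most 0.204 CPM in GSK126 cells and 0.667 CPM in DMSO cells, with Krt5 at 0 reads. Whether other cells had a part in the results was not tested. In bulk RNA, fewer cells expressing a gene and less of its RNA per cell cannot be told apart.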

How the data were processed

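RNA was measured in 3 GSK126 and 3 DMSO libraries of B16F10 cells, grouped by the treatment label. The submitters' processing notes name CASAVA 1.8, HISAT2 and the build GRCm38.p4/mm10. No source used here names the tool that counted reads, whether it used strand, or the annotation release. The authors deposited raw counts per gene for each library and FPKM values for the same libraries in one table. Within each gene the deposited FPKM followed the counts, to a ratio of at most 1.000009 between libraries over 10025 genes, so tests used the counts and FPKM served to compare levels between genes.

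Counts were fitted in R 4.3.3 with edgeR 4.0.16 (filterByExpr, TMM, quasi-likelihood F test, group as the only term), with p-values adjusted by Benjamini-Hochberg over 13601 tested genes and a threshold of 0.05. Fits were first run on counts simulated with the spread that edgeR estimated in these libraries, which does not test the calls made here. Alternatives were DESeq2 1.42.0, limma-voom (limma 3.58.1), RLE and upper-quartile scaling, no filter on low counts, the replicate number as a block, and leaving out each library. Structure and exon overlaps came from GENCODE M21 (GRCm38), whose span for the 10 members is that of the files, and promoters from RefSeq (GRCm38.p6). CPM use TMM-scaled library sizes.

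The members and lists were chosen with earlier results of these data known. The genes named are the 10 members, from each list up to 6 called genes with the largest absolute log2 fold change or else the most abundant, and the 5 genes most correlated with Egr1. Dusp4, Dusp6, Epha4, Id3, Ifrd1 and Egr4 were named after their values were seen. So were the melanocytic markers named, Ptprc and Col1a2, the partners in exon overlaps and the markers at 0 reads. Listed genes carried older symbols in 4 cases, matched through RefSeq synonyms at the same locus. Replicates of a group differed by more than counting noise (chi-square per degree of freedom 7.60 to 14.3).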

Additional observations from a re-analysis of the deposited data

How the results depend on the processing

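Over all genes, 1503 were called, against 899 with no filter on low counts and 408 with the replicate block. Leaving out 1 library gave 529 to 1243, namely 698, 815 and 1243 for GSK126 replicates 1 to 3 and 529, 577 and 694 for DMSO replicates 1 to 3. Of the members, 3 were called, with 1 to 3 when 1 library was left out. Of the genes in the 7 lists of related genes, 30 were called, with 17 under the replicate block and 18 to 25 when 1 library was left out. The causes were not tested, and the fits without a library also had fewer samples. Over 108 combinations of a tested member and an alternative, 95 kept their direction and side of the threshold, 8 lost a call, 3 gained one and 2 reversed. Both reversals were of Nab2, to -0.01 without GSK126 replicate 1 and -0.07 without DMSO replicate 2, within -0.07 to 0.10 over the 6 fits without 1 library. For 35 other named genes, 320 of 419 combinations kept both, 99 lost a call and 0 reversed. These leave out Etv4 in DESeq2, which gave it no adjusted p.

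Over genes in general, same-numbered libraries of both groups did not deviate together. The correlations of their deviations from the group means over 10973 genes were 0.0665, 0.0210 and -0.0420, and GSK126 replicates 2 and 3 were each most correlated with a DMSO library of another number. The replicate number was therefore not taken to pair the samples. With it as a block, Ier3 was no longer called and Egr2 was (adjusted p = 0.0362 by edgeR), leaving 3 called members. Braf also lost its call under the block (adjusted p = 0.0501 by edgeR). Egr1, Egr2, Nr4a1 and Klf4 were highest in replicate 2 of both groups, as were Fos and Junb, and Klf6 in replicate 1 of both. The highest replicate of Egr3, Nab2, Ier2, Ier3 and Ier5 differed between the groups. The SE with the block was 0.10 for Egr1 and 0.30 for Egr2, against 0.23 and 0.64 without it. For Ier3, Ier5 and Klf6 it was 0.10, 0.15 and 0.05, against 0.09, 0.13 and 0.04. Depth limits Egr3, the only member not tested, with 10 reads or fewer in each library, and 7 genes of the related lists that were not tested either.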
